A study of Mus musculus with 16 samples.

Results

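Counts from mouse hypothalamus covered 45706 annotated genes, of which 16280 passed the filter on low counts in every fit. Of these, 6 transcripts are described here. They were much more abundant in ribosomes precipitated from PNOC neurons than in the whole tissue, although none has a known role in these neurons. They are Cd72, Pgam5, Yipf2, Ctxn3, Evl and Rprm. They were picked by hand because their pulldown values exceeded their input values strongly in these libraries, and the choice carries no numerical threshold. Their excess in pulldown is therefore given as a description without a test, and all 6 passed the filter on low counts in every fit.

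Ribosome affinity purification (bacTRAP) marks the ribosomes of one cell type with a green fluorescent tag on the large-subunit protein L10a, so that anti-GFP antibodies recover the RNA those ribosomes carry. A transcript made mostly in the tagged cells is then more abundant in the precipitate than in the lysate, and a transcript of other cells is less abundant. PNOC neurons make prepronociceptin, the precursor of the opioid-like peptide nociceptin, and in the hypothalamus they are largely inhibitory cells that take part in the control of feeding. The 6 transcripts code for unrelated proteins: an immune-cell surface receptor, a mitochondrial phosphatase, a Golgi membrane protein, a small neuronal membrane protein, an actin assembly factor and a p53-dependent cell-cycle inhibitor.

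The study compared mice labelled as control, carrying floxed Lepr alleles (Lepr-flox), with mice in which Lepr, the leptin receptor gene, was deleted in PNOC neurons (Pnoc Lepr deletion). Both were crossed to ROSA-STOP-L10a-bacTRAP mice, in which the tag appears only after Cre recombination; the Cre allele of the control animals is not named in the labels, and the titles call these libraries wild type. All animals were on a C57Bl/6N background, ate chow, were sampled in the random-fed state and were 12 weeks old per the treatment protocol (10 to 12 weeks per the extraction protocol). Each of 8 pools held the hypothalami of 4 animals, and gave an input library from the lysate before precipitation and a pulldown library. Control pools are numbered 1 to 4 and Lepr-deletion pools 5 to 8, so each of the 4 groups had 4 libraries, and spread between single animals cannot be seen.

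Libraries held 64435952 to 78623636 counts, and mitochondrially encoded genes took 27.6% to 32.5% of input counts and at most 0.112% of pulldown counts. Levels below are CPM (counts scaled to library size) after TMM scaling over the 16 libraries, with SD and n = 4, unless another scale is named. Markers of neurons and glia were present in input as the tissue label says. The 10 neuronal markers summed to 7870 to 8340 CPM in control input and 14700 to 15700 CPM in control pulldown, while 8 astrocyte markers summed to 2480 to 2820 CPM in input and 138 to 157 CPM in pulldown. In such bulk samples, fewer cells of a type and less RNA per cell cannot be told apart. Pnoc rose from 2.71 ± 0.196 CPM in control input to 8.78 ± 1.25 CPM in control pulldown, a log2 fold change of 1.68 (SE 0.12; edgeR quasi-likelihood test, Benjamini-Hochberg adjusted p = 2.04e-07). Lepr was not lower but 0.71 higher on the log2 scale in Lepr-deletion pulldown (SE 0.12, edgeR adjusted p = 0.0386). That call was lost in 6 of 8 fits that left out 1 pulldown library, and a gene total does not show which part of the gene was removed.

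The membrane receptor Cd72 is known as an inhibitory co-receptor of B cells; it binds the semaphorin Sema4d and passes its signal through the phosphatase Ptpn6. The gene (ENSMUSG00000028459) lies on chromosome 4 from 43447724 to 43455102 on the minus strand of GRCm38.p6. In control input the 4 pools had 1.30, 1.50, 2.59 and 0.927 CPM, and in control pulldown 8.56, 9.63, 8.05 and 8.61 CPM. Lepr-deletion pools had 2.32, 1.09, 1.61 and 1.43 CPM in input and 7.78, 7.72, 8.68 and 8.31 CPM in pulldown. Every pulldown library lay far above every input library, and the 2 genotypes overlapped in both fractions. The log2 difference between pulldown and input was 2.44 (SE 0.23) in control, a 5.43-fold excess, and 2.33 (SE 0.18) in Lepr deletion.

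The input values rested on 54 to 160 counts in control and 70 to 127 in Lepr deletion. The coefficient of variation of Cd72 was 45.2% in control input and 7.56% in control pulldown. Pool by pool the control excess of Cd72 ranged from 1.64 in pool 3, whose input was the highest, to 3.22 in pool 4, whose input was the lowest. The effective length of Cd72, taken as counts over TPM, scaled within each library and given as a percentage of its mean over libraries, was 62.1% to 104% in control input and 104% to 109% in control pulldown, so that the input spread reached the pulldown values. In Lepr deletion it was 92.4% to 109% in input and 102% to 109% in pulldown. The difference of mean log2 lengths, pulldown minus input, was 0.29 for Cd72 in control, outside the -0.18 to 0.12 that held most of 14897 genes. In Lepr deletion this difference was 0.07, inside the -0.16 to 0.12 of most genes. The part of this length shift in the control excess was not tested.

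The B-cell markers together were not higher in control pulldown. The 10 B-cell markers summed to 2.10 to 3.17 CPM in control input and 1.12 to 1.34 CPM in control pulldown. That list includes the adaptor Blnk, which is also among the signalling partners below and was lower in control pulldown. The sum therefore does not stand for each marker, and the part of single genes in its fall was not tested. Cd79b and Ms4a1 had no count in any control pulldown library, and only 0 to 6 and 0 to 4 counts in control input. Cd79a had 7 to 32 counts in control pulldown, at a mean of 0.159 CPM beside 0.182 CPM in input, and in Lepr deletion it had 0.223 CPM in pulldown beside 0.123 CPM in input. Pax5, the B-cell transcription factor that some neurons also express, had a mean of 0.433 CPM in control input and 0.668 CPM in control pulldown. In Lepr deletion Pax5 was not higher in pulldown, with 0.473 CPM in input and 0.443 CPM in pulldown. Of 9 tested ligand and signalling partners of Cd72, 1 was higher and 6 were lower in control pulldown (edgeR, adjusted p under 0.05), where 30.1% of all tested genes were higher and 34.6% lower; the median log2 fold change was -0.87 beside -0.02 over all genes. The adaptor Grb2 was the higher one at 0.27 (SE 0.04). The phosphatase Ptpn6 was lower at -3.89 (SE 0.43), the kinase Lyn at -3.53 (SE 0.26), the adaptor Blnk at -3.77 (SE 0.51) and the semaphorin receptor Plxnb1 at -1.78 (SE 0.08).

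Cd72 shares 352 bases with the end of Tesk1, a kinase gene on the opposite strand, and the strand setting of the counting is not given in the sources used here. Tesk1 rose by 0.20 on the log2 scale in control pulldown (SE 0.07, edgeR adjusted p = 0.0311) and had 0.07 in Lepr deletion (adjusted p = 0.422), from 26.6 ± 1.59 CPM in control input to 30.9 ± 2.75 CPM in pulldown. How the estimated counts divide reads shared between the 2 genes was not checked, so the part of the overlap in the Cd72 count was not tested.

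Pgam5 codes for a protein of the phosphoglycerate mutase family that acts as a serine and threonine phosphatase at the mitochondrial membrane and binds the redox sensor Keap1. The gene (ENSMUSG00000029500) lies on chromosome 5 from 110259135 to 110269899. Control pools had 9.57, 10.4, 11.1 and 10.1 CPM in input and 56.4, 50.6, 49.9 and 47.9 CPM in pulldown. Lepr-deletion pools had 11.9, 14.3, 13.5 and 12.6 CPM in input and 46.8, 48.8, 46.3 and 50.1 CPM in pulldown. These were tight groups, with coefficients of variation of 3.62% to 8.22%, and the input groups of the genotypes did not overlap while the pulldown groups did. The log2 excess was 2.30 (SE 0.07) in control, or 4.91-fold, and 1.87 (SE 0.07) in Lepr deletion, or 3.65-fold.

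The excess of Pgam5 was not shared by its neighbours on the chromosome or matched by its relatives. Pgam5 was chosen for this excess, so its place above them can be part of the choice. Ankle2, which ends 2484 bases away on one side, fell by 0.30 on the log2 scale in control pulldown (SE 0.07), although with scaling by library totals it was higher by 0.24 where the median of all genes also moved up by 0.546. Pxmp2, a peroxisomal membrane protein gene 4387 bases away on the other side, fell by 3.03 (SE 0.36). The glycolytic mutase Pgam1 rose by 0.55 in control (SE 0.04) and 0.43 in Lepr deletion (SE 0.05), and the muscle form Pgam2 had 0.24 (SE 0.25), which did not pass. Of 25 tested genes of the Pgam family and of mitochondrial quality control, 13 were higher and 3 lower in control pulldown, beside 30.1% and 34.6% of all genes, with a median of 0.24 beside -0.02. The fission factor Mff and the mitophagy receptor Bnip3 were each 0.62 higher, the fusion protein Mfn1 was lower at -0.92 and the oxidative-stress factor Nfe2l2 was lower at -3.21.

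Yipf2 belongs to the Yip1 family of multi-pass Golgi membrane proteins that bind Rab GTPases, the switches of vesicle traffic. The gene (ENSMUSG00000032182) lies on chromosome 9 from 21588682 to 21592831 on the minus strand. Control pools had 1.56, 3.60, 3.18 and 2.45 CPM in input and 9.79, 9.62, 9.34 and 9.30 CPM in pulldown. Lepr-deletion pools had 3.95, 2.44, 2.84 and 2.87 CPM in input and 8.48, 10.3, 7.86 and 8.78 CPM in pulldown. Input and pulldown were fully separated and the genotypes overlapped in both. The log2 excess was 1.80 (SE 0.19) in control and 1.54 (SE 0.14) in Lepr deletion, and the level had a coefficient of variation of 33.1% in control input and 2.41% in control pulldown.

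Both ends of Yipf2 overlap other genes. It shares 786 bases with Carm1, an arginine methyltransferase gene that had a log2 fold change of 0.11 (SE 0.06, edgeR adjusted p = 0.136) in control, and 110 bases with Timm29, a mitochondrial import gene listed as 1810026J23Rik that rose by 0.35 (SE 0.04, adjusted p = 7.91e-06). Both were far more abundant than Yipf2, at 40.9 ± 3.30 and 115 ± 3.39 CPM in control input. How the estimated counts divide reads shared with them was not checked.

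In the Yip1 family and the Golgi Rab machinery, 12 of 19 tested genes were higher in control pulldown and none lower, beside 30.1% and 34.6% of all genes, with a median of 0.27 beside -0.02. In Lepr deletion 11 were higher and none lower, beside 28.8% and 32.8% of all genes. Yipf4 rose by 0.91 (SE 0.08), Yipf1 by 0.44 (SE 0.08), and 3 further measured paralogs had -0.07 to 0.06. The Golgi Rab GTPase gene Rab2a rose by 0.52 (SE 0.04) and Rab6a by 0.43 (SE 0.05). None of the family reached the value of Yipf2, which was itself chosen for its excess.

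Ctxn3 codes for a cortexin, a short single-pass membrane protein found in neurons. The gene (ENSMUSG00000069372) lies on chromosome 18 from 57467751 to 57478134. Control pools had 17.9, 14.3, 14.0 and 15.3 CPM in input and 82.0, 54.9, 43.9 and 43.1 CPM in pulldown. Lepr-deletion pools had 12.6, 17.4, 16.3 and 14.9 CPM in input and 37.9, 44.4, 45.7 and 46.1 CPM in pulldown. Control pools 1 and 2 were the highest of the 8 pulldown libraries, and the other 6 lay close together. The log2 excess was 1.85 (SE 0.18) in control, 1.61 without the pulldown library of pool 1, and 1.50 (SE 0.09) in Lepr deletion. With both libraries of pool 1 left out, the control excess was 1.69. A fit that paired input and pulldown of each control pool gave 1.81 (SE 0.09). The other cortexins rose less than Ctxn3, which was chosen for its excess. Ctxn2 rose by 0.76 (SE 0.06) and Ctxn1 by 0.31 (SE 0.06) in control, and by 0.62 (SE 0.09) and 0.25 (SE 0.06) in Lepr deletion. The nearest protein-coding gene before it, Prrc1, lies 74795 bases away and fell by 0.30 in control pulldown (SE 0.07). On the other side Ccdc192, listed as 1700011I03Rik, lies 55608 bases away. Ccdc192 had only 0.166 ± 0.0961 CPM in control input and rose by 1.24 in pulldown (SE 0.40, edgeR adjusted p = 0.0171). In Lepr deletion it had 0.24 (SE 0.48, adjusted p = 0.679).

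Evl codes for an Ena/VASP protein, one of the factors that lengthen actin filaments at the leading edge of cells and in growth cones. The gene (ENSMUSG00000021262) lies on chromosome 12 from 108554681 to 108688516 on the plus strand. Control pools had 59.4, 47.8, 53.1 and 49.8 CPM in input and 129, 119, 114 and 113 CPM in pulldown. Lepr-deletion pools had 54.9, 54.8, 53.1 and 56.8 CPM in input and 112, 114, 110 and 112 CPM in pulldown. Every pulldown library had more than every input library, at 110 to 129 against 47.8 to 59.4 CPM, and the genotypes overlapped in both fractions. The log2 excess was 1.16 (SE 0.07) in control and 1.02 (SE 0.04) in Lepr deletion, the smallest of the 6.

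The other Ena/VASP proteins had values near 0. The protein Enah had a log2 fold change of -0.01 (SE 0.03) and Vasp of -0.07 (SE 0.11) in control; with scaling by library totals they had 0.54 and 0.47, which is no more than the 0.546 by which the median of all genes then moved. In Lepr deletion Enah was higher by 0.12 (SE 0.05, edgeR adjusted p = 0.03), but had -0.01 with the scaled counts, and Vasp had -0.22 (SE 0.13, adjusted p = 0.153). Of 24 tested genes of actin assembly, 11 were higher and 7 lower in control pulldown, beside 30.1% and 34.6% of all genes, with a median of 0.06 beside -0.02; the share of lower genes was near that of all genes. Pfn2, a profilin that supplies actin monomers, rose by 0.53 (SE 0.04) and Wasl by 0.46 (SE 0.04). The adaptor Fyb fell by 4.24 (SE 0.20), the adhesion protein Lpp by 1.86 (SE 0.09) and Wasf2 by 1.74 (SE 0.10). The end of Evl shares 1725 bases with Degs2, a sphingolipid enzyme gene on the opposite strand that fell by 1.32 in control (SE 0.13) and 1.37 in Lepr deletion (SE 0.08). The start of Evl shares 938 bases with the noncoding Gm16596, which had 1.59 ± 0.343 CPM in control input. Gm16596 rose by 0.48 in control (SE 0.19, edgeR adjusted p = 0.0439) and had 0.06 in Lepr deletion (SE 0.17, adjusted p = 0.765). The intron-borne Mir342 had 0 counts in every library of this gene table.

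Rprm codes for Reprimo, a small membrane glycoprotein known as a p53 target that holds cells in the G2 phase. The gene (ENSMUSG00000075334) is a short one on chromosome 2, from 54084093 to 54085552 on the minus strand, with no other protein-coding gene closer than 350659 bases. Control pools had 33.1, 25.3, 22.0 and 20.0 CPM in input and 114, 76.7, 72.4 and 74.8 CPM in pulldown. Lepr-deletion pools had 26.4, 26.3, 33.3 and 22.8 CPM in input and 69.0, 75.1, 76.5 and 74.1 CPM in pulldown. Pool 1 was the highest control library in both fractions, and the other 7 pulldown libraries lay between 69.0 and 76.7 CPM. The log2 excess was 1.73 (SE 0.17) in control, 1.57 without the pulldown library of pool 1, and 1.43 (SE 0.09) in Lepr deletion. With both libraries of pool 1 left out, the control excess was again 1.73. The SE of 0.17 is from a fit that does not pair input and pulldown of a pool. A fit that did gave 1.73 (SE 0.05).

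The paralog Rprml had a log2 fold change of 0.18 (SE 0.20) in control and -0.15 (SE 0.21) in Lepr deletion, and passed in neither; its sign in Lepr deletion turned to 0.57 with limma on log2(TPM + 1), where the median of all genes moved up by 0.859. Of 20 tested genes of the Reprimo family and p53 targets, 4 were higher and 7 lower in control pulldown, beside 30.1% and 34.6% of all genes, with a median of -0.04 beside -0.02; the share of lower genes was near that of all genes. The p53-induced Phlda3 rose by 0.57 (SE 0.08), and Trp53inp1 fell by 1.50 (SE 0.07). Ei24 fell by 0.45 (SE 0.05), although it had 0.10 with scaling by library totals, below the shift of all genes.

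**Figure D1:**
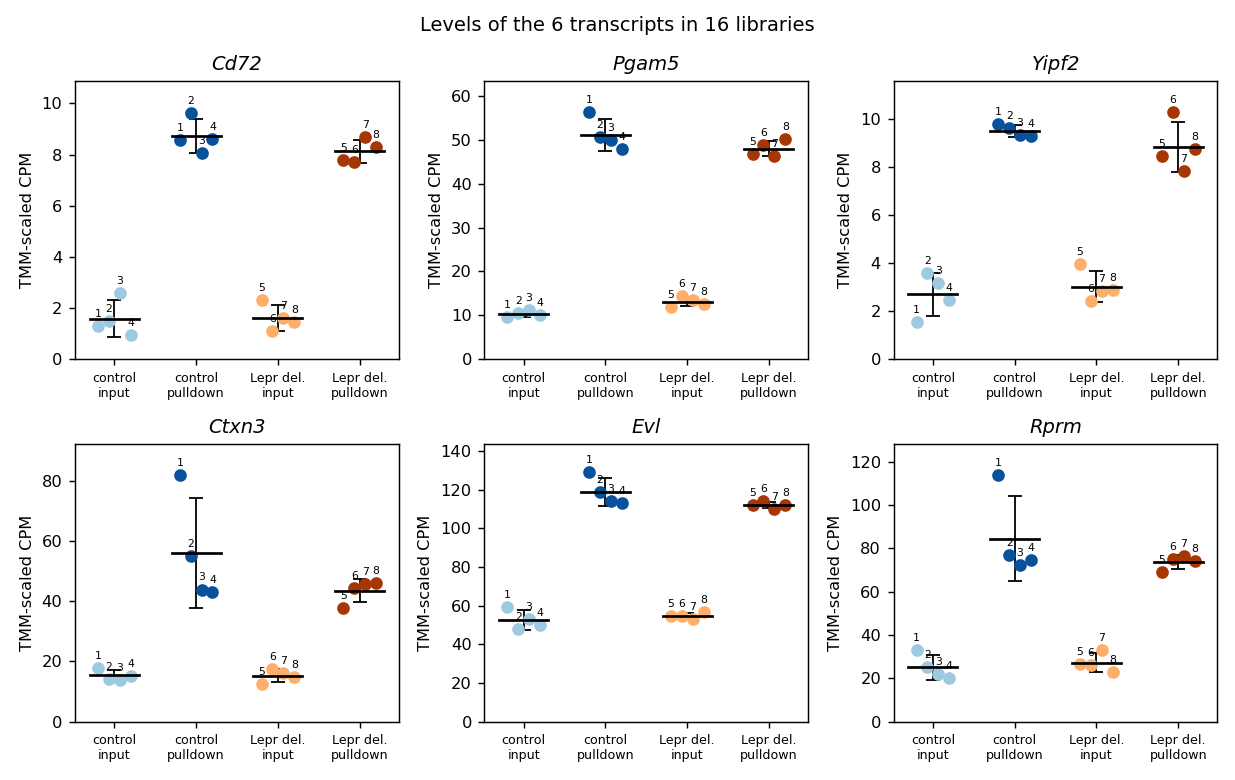
TMM-scaled CPM of each transcript (vertical axis, from 0, one panel each) in control input, control pulldown, Lepr-deletion input and Lepr-deletion pulldown; points are the 4 pools of a group, numbered, with the mean (line) and SD (bars). Every pulldown point lies above every input point, and pool 1 stands above the other control pulldown libraries of Ctxn3 (82.0 CPM) and Rprm (114 CPM).

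Per transcript length, the order of the 6 in control pulldown was Evl with 169 ± 7.31 TPM, Rprm with 160 ± 33.5, Ctxn3 with 105 ± 31.5, Pgam5 with 65.9 ± 3.30, Yipf2 with 12.8 ± 0.180 and Cd72 with 8.87 ± 0.634. Evl and Rprm, and Rprm and Ctxn3, did not differ by more than the sum of their SDs. In control input the order was Evl with 38.2 ± 3.93 TPM, Rprm with 24.3 ± 5.72, Ctxn3 with 14.8 ± 1.82, Pgam5 with 6.89 ± 0.375, Yipf2 with 1.80 ± 0.624 and Cd72 with 0.966 ± 0.284. In pulldown Pgam5, Yipf2 and Cd72 each differed from their neighbours among the 6 by more than the sum of their SDs, while in input Yipf2 and Cd72 did not. Pnoc itself had 10.7 ± 1.72 TPM in control pulldown, between Yipf2 and Cd72.

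The values that chose the set place it in the far upper tail of all genes. Of 17570 genes tested in control, 30.1% were called higher in pulldown, 34.6% lower, and 248 were called higher by more than 2-fold. In Lepr deletion 28.8% of 17423 were called higher, 32.8% lower, and 182 were called higher by more than 2-fold. Counting from the largest log2 fold change in control, Cd72 was number 12, Pgam5 16, Ctxn3 32, Yipf2 35, Rprm 40, Pnoc 46 and Evl 177. In Lepr deletion Cd72 was number 20, Pgam5 31, Pnoc 44, Yipf2 62, Ctxn3 70, Rprm 78 and Evl 202. Among the 10578 genes with a mean of at least 5 CPM in control, the 6 stood at numbers 4 to 41.

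**Figure D2:**
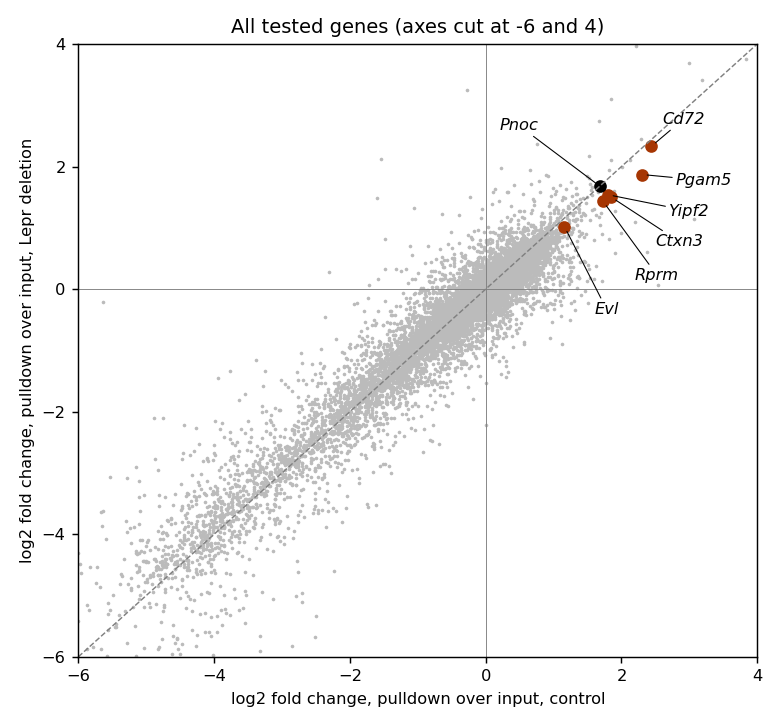
Each grey point is a gene tested in both genotypes, with its log2 fold change of pulldown over input in control (horizontal axis) and in Lepr deletion (vertical axis); the dashed line marks equal values and points beyond -6 or 4 are not shown. The 6 transcripts (brown) lie at the upper right with Pnoc (black), and each of the 6 lies below the line, from 2.44 and 2.33 for Cd72 to 1.16 and 1.02 for Evl.

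The deposited fold changes of the authors were close to these. In the authors' deposited table the control log2 fold changes were 2.46 for Cd72, 2.31 for Pgam5, 1.82 for Yipf2, 1.86 for Ctxn3, 1.17 for Evl and 1.75 for Rprm.

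Bases before the start sites are shown for Evl and Rprm, the 2 most abundant of the 6 per length, to give the sequence context in which their transcription begins; they are RefSeq sequence of GRCm38.p6, 5′ to 3′ on the strand of the gene, and each ends at the base before the annotated gene span. For Rprm this is also the base before the RefSeq start site, while the first RefSeq start of Evl lies further on, after 39 bases of the gene span that are not printed. Capitals mark the GC box, GGGCGG read on either strand.
Evl, chr12:108554470-108554680, plus strand: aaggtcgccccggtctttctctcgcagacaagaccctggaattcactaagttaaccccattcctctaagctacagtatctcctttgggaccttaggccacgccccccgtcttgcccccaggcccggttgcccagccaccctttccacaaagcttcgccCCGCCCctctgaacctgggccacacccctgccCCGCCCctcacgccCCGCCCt
Rprm, chr2:54085553-54085802, minus strand: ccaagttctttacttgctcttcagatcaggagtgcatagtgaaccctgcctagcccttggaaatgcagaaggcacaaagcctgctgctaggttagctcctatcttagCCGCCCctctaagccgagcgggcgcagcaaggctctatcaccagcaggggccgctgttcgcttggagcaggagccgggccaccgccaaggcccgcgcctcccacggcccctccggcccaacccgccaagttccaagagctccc

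Of the 6, RefSeq start sites with sequence were at hand for Cd72, Yipf2, Evl and Rprm, Evl with 2 sites. In the 250 bases before each start, 5 motifs were searched on both strands: the TATA box (TATAAA), the CCAAT box (CCAAT), the GC box (GGGCGG), the cyclic AMP response element (TGACGTCA) and the ETS core (CGGAAG). The GC box GGGCGG occurred 3 times before the first Evl start and 1 time before Rprm, and in 32.9% of 27025 promoters. None of the other 4 motifs was found before any of the 5 starts; the TATA box occurred in 13% of all promoters, the CCAAT box in 34.5%, the cyclic AMP response element in 1.62% and the ETS core in 13.8%. The windows held 6 CpG dinucleotides for Cd72, 19 for Yipf2, 16 for the first Evl start, 2 for the second Evl start and 13 for Rprm, beside a median of 6. All 250 bases of the Cd72 window and of the second Evl window lie inside their own gene spans, and the Yipf2 window overlaps Timm29.

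The effect of Lepr deletion on these transcripts was asked in pulldown, in input and as the difference of their excess, and in the main edgeR fits of these none of the 6 passed the threshold; fits in which Pgam5 passed are given with its values. In pulldown, 0 of 6 passed at an adjusted p of 0.05 (edgeR quasi-likelihood test, 8 libraries), where 0.641% of 16859 genes passed, and 0 of 6 had an unadjusted p under 0.05, where 19.8% of all genes had. With DESeq2, which called 7.31% of genes, it was also 0 of 6. All 6 values were negative, as were 52.4% of all genes. The log2 differences, Lepr deletion over control, were -0.09 for Cd72 (SE 0.08, adjusted p = 0.568), -0.08 for Pgam5 (SE 0.06, adjusted p = 0.451) and -0.09 for Yipf2 (SE 0.08, adjusted p = 0.592). They were -0.35 for Ctxn3 (SE 0.17, adjusted p = 0.271), -0.07 for Evl (SE 0.05, adjusted p = 0.422) and -0.18 for Rprm (SE 0.12, adjusted p = 0.421). For Pgam5, an interval of 2 SE ran from -0.19 to 0.03 and for Evl from -0.17 to 0.02. These intervals rest on 8 libraries and on the main fit, so they do not exclude larger differences.

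The Ctxn3 and Rprm differences rested on one library. Without the pulldown library of control pool 1, Ctxn3 had -0.11 (edgeR adjusted p = 0.494) and Rprm -0.01 (adjusted p = 0.923). With pools 1 and 5 left out together they had -0.05 and 0.02.

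In input, 0 of 6 passed where 0.231% of 17735 genes passed, and 1 of 6, Pgam5, had an unadjusted p under 0.05, where 14.0% of all genes had. Pgam5 was 0.35 higher in Lepr deletion on the log2 scale (SE 0.08, unadjusted p = 0.00101, edgeR adjusted p = 0.117), from 10.3 ± 0.630 to 13.1 ± 1.07 CPM, and all 4 Lepr-deletion pools lay above all 4 control pools. Such a lack of overlap was found for 6.75% of all genes. Other input measures separated the genotypes too: the astrocyte markers summed to 2480 to 2820 CPM in control and 2170 to 2420 CPM in Lepr deletion, and mitochondrially encoded genes took 31.2% to 32.5% and 27.6% to 30% of counts. Their part in the Pgam5 value was not tested. The Pgam5 call depended on the fit: the adjusted p was 0.0124 with DESeq2 (which called 2.30% of genes), 0.0379 with all 16 libraries in 1 fit, 0.0173 without pools 1 and 5 and 0.0451 without the input library of pool 5, over a range of 0.0124 to 0.405 in all fits. The authors' deposited table gave it 0.35 with an adjusted p of 0.0149, and called 2.32% of the genes it tests there. The other 5 had log2 differences between -0.01 and 0.16 in input, with adjusted p of 0.708 to 0.988 by the edgeR test.

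The difference of the 2 excesses, tested as an interaction over 16 libraries, passed for 0 of 6, where 0.0108% of 18530 genes passed, and 1 of 6 had an unadjusted p under 0.05, where 8.96% of all genes had. It was -0.44 for Pgam5 (SE 0.09, unadjusted p = 0.00015, edgeR adjusted p = 0.354), which stood at number 7 of all genes by p, and passed with DESeq2 (adjusted p = 0.0385), which called 0.113% of genes. With the pool as a block the adjusted p was 0.164. The others had -0.12 for Cd72 (SE 0.31), -0.27 for Yipf2 (SE 0.25), -0.36 for Ctxn3 (SE 0.22), -0.15 for Evl (SE 0.08) and -0.31 for Rprm (SE 0.21), with adjusted p of 0.621 to 0.943. These values moved when 1 library was left out: Cd72 had -0.49 without input pool 3 and 0.08 without input pool 5, and Yipf2 had -0.44 without input pool 2 and -0.10 without input pool 1. Without the input library of pool 1 Ctxn3 had -0.46, Evl -0.23 and Rprm -0.50, and without its pulldown library they had -0.12, -0.10 and -0.14. Each of those fits kept the other library of pool 1. With both left out, the pool-by-pool differences described below were -0.18 for Ctxn3, -0.17 for Evl and -0.29 for Rprm. All 6 were negative, as were 53.2% of all genes. The set was chosen on the excess itself and the rule names no genotype, so a lower value in one genotype can be part of the choice and nothing is read from the shared sign.

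**Figure D3:**
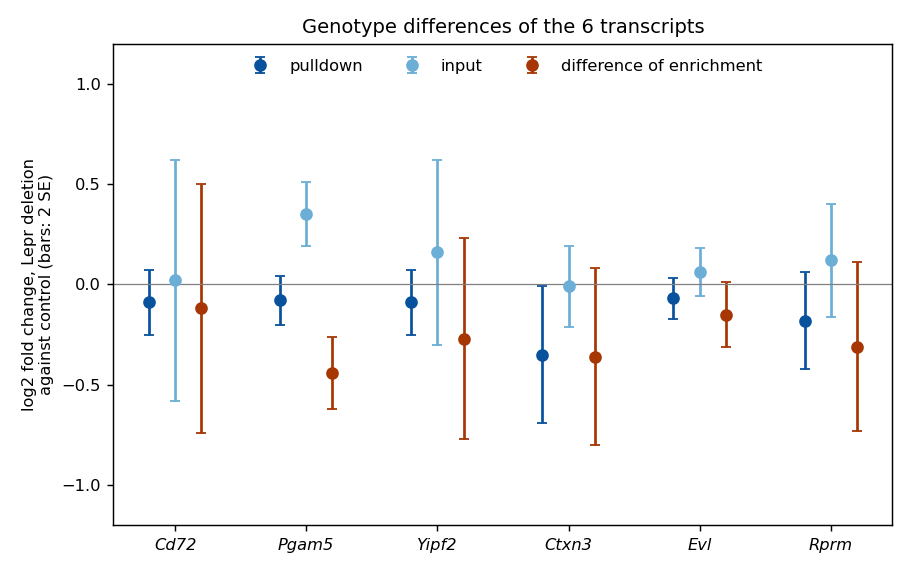
Log2 difference between Lepr deletion and control (vertical axis) for each transcript in pulldown (dark blue), in input (light blue) and for the difference of the excess (brown); bars are 2 SE. Most bars include 0; those of Pgam5 in input (0.35) and for the difference of the excess (-0.44) do not, nor does that of Ctxn3 in pulldown (-0.35), and none passed after adjustment over all genes.

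Pool by pool, the log2 excess, pulldown minus input, was compared between the 4 control and 4 Lepr-deletion pools with a two-sided exact permutation test, whose smallest p is 0.0286. Pgam5 had 2.56, 2.29, 2.17 and 2.24 in control pools and 1.98, 1.77, 1.78 and 1.99 in Lepr-deletion pools. Evl had 1.12, 1.32, 1.1 and 1.18 in control and 1.03, 1.06, 1.05 and 0.98 in Lepr deletion. These were the transcripts whose groups did not overlap, with mean differences of -0.44 and -0.15, each at that smallest exact p, or 0.0857 after adjustment over the 6 tests. Groups failed to overlap in 6.61% of all genes. Rprm had a mean difference of -0.30 (exact p = 0.0571, adjusted 0.114) and Ctxn3 of -0.31 (exact p = 0.114, adjusted 0.171). Cd72 and Yipf2 had -0.18 and -0.32 with exact p of 0.629 and 0.457, and their pools spanned 1.64 to 3.22 and 1.1 to 2.65. Without control pool 1 Yipf2 had -0.07 and Ctxn3 -0.18, and without control pool 4 the sign of Cd72 turned to 0.04. Evl and Rprm had -0.17 and -0.29 without control pool 1, near their values with all pools. These values share the limit of the choice on the excess.

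**Figure D4:**
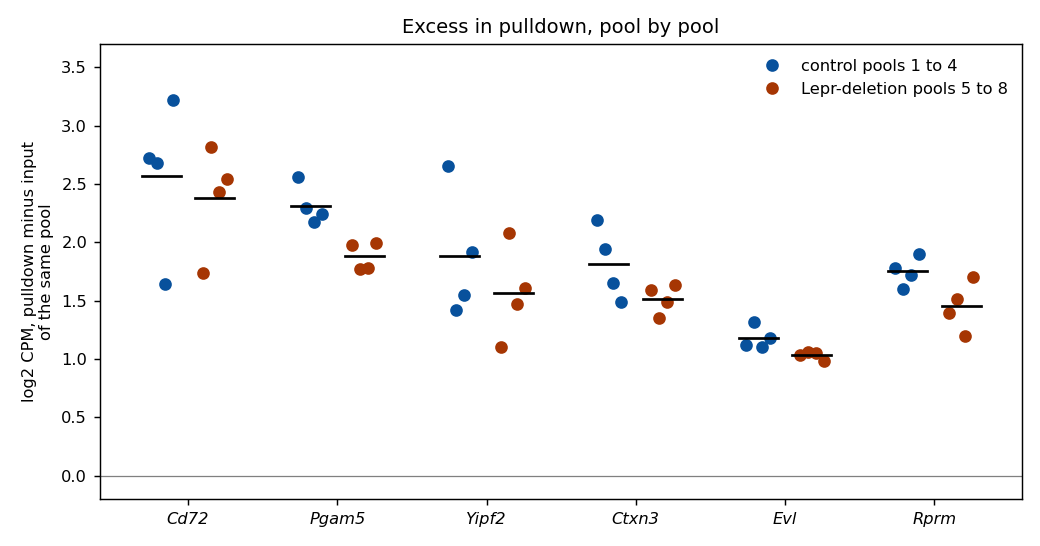
Log2 CPM in pulldown minus input of the same pool (vertical axis) for each transcript; points are the control pools (blue) and Lepr-deletion pools (brown) and lines are group means. All 48 points lie above 0, the groups of Pgam5 and Evl do not overlap, and those of Cd72 and Yipf2 spread most.

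The related genes were also compared between genotypes. In pulldown, where 0.641% of all genes passed, 1 of 19 tested Yip1 and Golgi Rab genes and 1 of 18 Reprimo and p53 genes passed, and none of the other lists did; in input and for the difference of the excess none passed in any list. In pulldown Yipf4 had 24.6 ± 0.778 CPM with Lepr intact and 17.6 ± 2.36 CPM with Lepr deleted, a log2 difference of -0.47 (SE 0.08, edgeR adjusted p = 0.0409). The antiproliferative p53 target Btg2 had 7.80 ± 1.16 and 4.99 ± 0.588 CPM, a difference of -0.63 (SE 0.12, adjusted p = 0.0494). Both calls were lost when any 1 of pulldown pools 2, 3, 4, 6, 7 or 8 was left out, with adjusted p up to 0.194 for Yipf4 and 0.205 for Btg2, and also with the scaled counts and with limma on TPM.

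**Figure D5:**
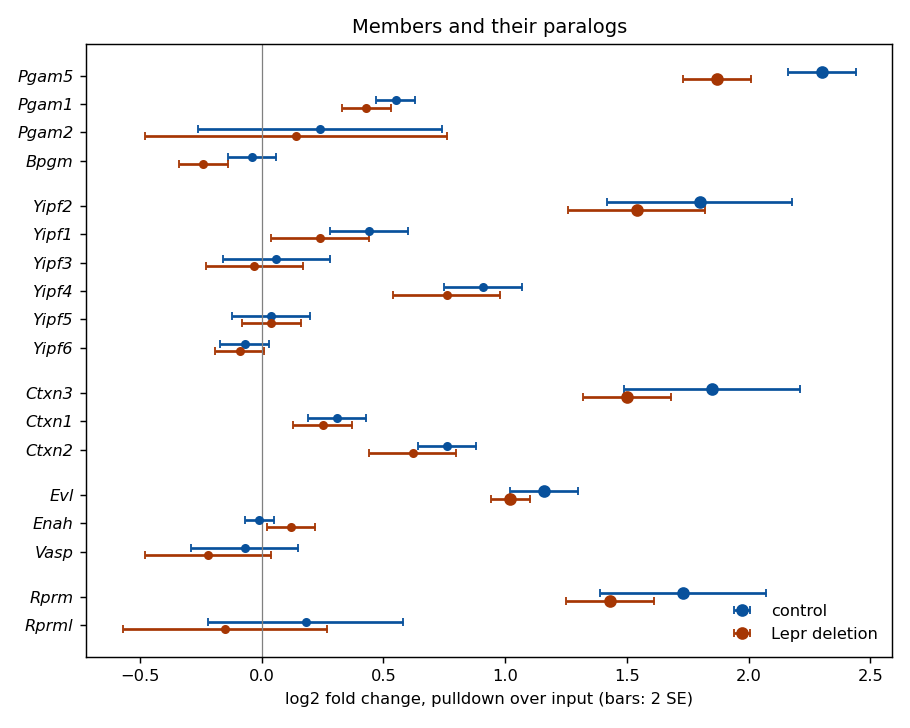
Log2 fold change of pulldown over input (horizontal axis) for 5 of the transcripts (large points) and their measured paralogs (small points) in control (blue) and Lepr deletion (brown), with bars of 2 SE. Each chosen transcript lies to the right of all its paralogs, the nearest being Yipf4 with 0.91 beside 1.80 for Yipf2. The set was chosen on this same excess and the paralogs were not, so that order can be part of the choice. Under scaling by library totals Enah and Vasp move from -0.01 and -0.07 to 0.54 and 0.47 with the median of all genes.

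The patterns over the 16 libraries set Ctxn3 and Rprm together. Likeness was measured as the root mean square difference of log2(CPM + 0.5), centred on each gene's mean, among 18529 other genes, so a smaller value is a closer pattern; the contrast that chose the set is part of it. Ctxn3 and Rprm were each other's closest gene at 0.181. The copine Cpne9 followed for both at 0.245 and 0.240, then Myh8 for Ctxn3 at 0.256 and the potassium channel subunit Kcnab3 for Rprm at 0.241. Cpne9 had 68.3, 49.1, 45.3 and 43.5 CPM in control pulldown pools 1 to 4 and Kcnab3 had 27.5, 21.8, 19.4 and 20.0 CPM. Pool 1 was the highest in both, as it was in Ctxn3 and Rprm.

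Pgam5 was closest to Crabp1, a retinoic acid binding protein, at 0.188, the peptide gene Sst at 0.190 and the noncoding Snhg3 at 0.211. Cd72 was closest to Sst at 0.262, Pgam5 at 0.292 and Snhg3 at 0.326. Sst went from 57.0 ± 3.63 CPM in control input to 253 ± 8.51 CPM in control pulldown. Yipf2 was closest to the transcription factor genes Onecut3 at 0.255 and Dlx2 at 0.265. Evl had the closest neighbours of the 6, the pterin enzyme gene Pcbd1 at 0.0650, the iron-sulfur scaffold gene Iscu at 0.0815 and the calcium sensor gene Vsnl1 at 0.0864.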

How the data were processed

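Input and pulldown RNA of 8 pools was sequenced. The submitters' processing notes name Salmon 1.10.1, DESeq2 1.38.3 and the build GRCm38; the annotation release and strand setting are not given in the sources used here. The authors deposited estimated counts per gene, TPM per gene, counts rescaled for length from TPM, and a table of log2 fold changes with adjusted p-values. Estimated counts were rounded and tested with edgeR 4.0.16 in R 4.3.3 (quasi-likelihood, TMM, filterByExpr with minimum count 10 and minimum total 15, Benjamini-Hochberg over all kept genes, threshold 0.05, two-sided). Genotype comparisons used the 8 libraries of a fraction and the difference of excess all 16. An SE is the size of the log2 fold change over the square root of F. Estimated counts that Salmon splits between overlapping genes are uncertain for Cd72, Yipf2 and Evl.

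The 6 members, the gene lists and the rule for named genes were chosen with earlier results of these data known. The named genes were the members, Pnoc, Lepr and Rpl10a, neighbours and paralogs, up to 4 genes of each list with the smallest p in a comparison, and the 3 genes of most similar pattern. Rpl10a rose by 0.25 on the log2 scale in control pulldown. Summed levels of the other marker lists in control were 1120 to 1450 CPM in input and 122 to 142 CPM in pulldown for oligodendrocytes, 66.6 to 79.2 and 3.25 to 4.34 CPM for microglia and macrophages, and 40.5 to 52.4 and 3.68 to 6.37 CPM for vascular cells.

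Per the labels, both libraries with a given pool number were made from a single lysate. Their deviations from the group means correlated at 0.04 to 0.36, with 6 of 8 pairs above 0.1 and 7 of 8 matching their own number best. Pools of the 2 genotypes share no number. The floor of 3 counts comes to 0.0321 to 0.0562 CPM and covers counting error only. The SEs come from the edgeR fits, whose dispersion is estimated over the libraries, so they take in the spread between pools of a group. No replicates were duplicates: chi-square over its degrees of freedom was 7.96 to 48.1 in the 24 replicate pairs. Whether pools were processed on separate days is not given, so p-values measure the spread between these pools. Positions and start-site sequences are from RefSeq GRCm38.p6, matched for 6 of 6 positions. The statistical script was tested on simulated counts. Alternatives were RLE factors, library totals, other filters on low counts, DESeq2 1.42.0, the rescaled counts, limma 3.58.1 on TPM, removal of mitochondrially encoded genes, all libraries in 1 fit, the pool as a block, and libraries left out.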

Additional observations from a re-analysis of the deposited data

Results flagged for a closer look

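Among the 24 sets of 4 libraries formed by the 6 transcripts and the 4 groups, 1 held a library set apart from its group by Dixon's criterion, which chance meets in about 1 in 20 sets. Rprm had 114 CPM in the pulldown of control pool 1, while the other 3 control pulldown libraries had 72.4 to 76.7 CPM, and the gap was 0.894 of the whole range. Input of the same pool was also the highest of its group for Rprm, at 33.1 CPM. Ctxn3 had its highest value in the same pulldown library, 82.0 CPM, without passing the criterion. Leaving out this pulldown library alone gave a control excess of 1.57 for Rprm and 1.61 for Ctxn3 on the log2 scale. With the input library of pool 1 left out as well, the control excess was 1.73 for Rprm and 1.69 for Ctxn3.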

How the results depend on the processing

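The excess of the 6 transcripts in pulldown kept its sign in every alternative fit, with log2 values of 1.1 to 3.24 in control and 0.97 to 3.08 in Lepr deletion; the highest came with TPM or library totals, where the median of all genes moved by 0.455 to 0.975. Counts of all genes called in pulldown against input stayed within 1.5 times, at 10812 to 11613 and 10095 to 10753 when 1 library was left out. Among the called genes, scaling by library totals raised the share that was higher from 46.5% to 76.2% in control. In Lepr deletion that share of called genes rose from 46.8% to 74.4%. With the pool as a replicate block 12178 and 11054 genes were called.

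Genotype counts moved widely. In pulldown 108 genes became 266 with no filter, 1065 with DESeq2, 16 with scaled counts, 21 and 19 with limma on log2(TPM + 1) and log2(TPM + 0.1), 508 with all 16 libraries in 1 fit and 3363 without pools 1 and 5; leaving out 1 library gave 19 (without deletion pool 6) to 1262 (without deletion pool 5). With library totals 39.5% of the pulldown calls were higher, beside 61.1%. In input 41 became 108 with library totals (87% higher beside 58.5%), 261 with no filter, 376 with DESeq2, 11 with scaled counts, 20 and 23 with limma and 1957 without pools 1 and 5; leaving out 1 gave 19 to 402, without control pools 3 and 1. For the difference of excess 2 became 4 with RLE, library totals, limma on log2(TPM + 1) or the replicate block, 6 with no filter or log2(TPM + 0.1), 21 with DESeq2, 0 with scaled counts and 87 without pools 1 and 5, and 1 to 5 with 1 library left out. The block changed no member's call. No pairing of genotypes was possible because they share no pool number. The causes were not tested.

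Genotype values of members that passed no test also turned sign without pools 1 and 5: Rprm in pulldown from -0.18 to 0.02, Cd72 and Yipf2 in input from 0.02 and 0.16 to -0.28 and -0.18, and their differences of excess from -0.12 and -0.27 to 0.20 and 0.11. In pulldown against input the sign of other genes turned. In control, library totals gave 0.24 for Ankle2, 0.54 for Enah, 0.47 for Vasp and 0.10 for Ei24; log2(TPM + 1) gave 0.63, 0.90, 0.69 and 0.52, and log2(TPM + 0.1) gave 0.68, 0.91, 0.88 and 0.53. In Lepr deletion Ankle2 had 0.13 with library totals and Enah -0.01 with scaled counts. There log2(TPM + 1) gave 0.53 for Ankle2, 0.54 for Vasp, 0.57 for Rprml and 0.39 for Ei24, and log2(TPM + 0.1) gave 0.58, 0.68, 0.77 and 0.40.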
